A study of Mus musculus with 12 samples.

Results

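The insulin-like growth factor (IGF) axis was followed through 10 genes, which are the ligands *Igf1* and *Igf2*, the receptors *Igf1r*, *Igf2r* and *Insr*, and the binding proteins *Igfbp2* to *Igfbp6*. The members were chosen by function and found by matching Ensembl identifiers to gene symbols, which gave 10 of the 45706 genes in the count table. All 10 passed the filter on low counts, which left 17003 genes for testing, although *Igf1* passed only through the libraries labelled NSC and NR. *Igf2* passed through the libraries labelled Sox1posGP, NSC and NR, as its counts in those labelled Baseline were too low on their own.

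The libraries came from 4 groups of mouse cells, all grown from C57BL/6 embryonic stem cells that carry a green fluorescent protein reporter in 1 allele of *Sox1*, with 3 libraries per group, made on different days. Baseline was the group of unsorted, *Sox1*-negative glial progenitors. Sox1posGP was the group of glial progenitors sorted for the reporter after dCas9-VP64, a catalytically dead Cas9 fused to a transcriptional activator, had been directed to the *Sox1* promoter. NSC was a group of unsorted neuroepithelial cells and NR, for neural rosettes, a group of neuroepithelial cells sorted for the reporter. The dCas9-VP64 lines were grown from single cells, the glial progenitor medium held bFGF, EGF and laminin, and which lines gave the Baseline libraries is not stated. Sorting set Sox1posGP apart from Baseline as *Sox1* targeting did, so their effects cannot be told apart.

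The IGF ligands are secreted growth factors that act mainly through the type 1 receptor *Igf1r*, a tyrosine kinase that feeds the PI3K-AKT and MAPK cascades. The insulin receptor *Insr* can bind IGF2 in one of its splice forms, whereas *Igf2r* has no kinase domain and carries IGF2 to lysosomes. The binding proteins hold the ligands in the extracellular space and can lower or raise their access to receptors. In the developing brain the axis is known for its part in progenitor growth and survival, and *Igf2* and *Igf2r* are imprinted, being expressed mainly from the paternal and the maternal allele in most mouse tissues.

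Library totals ranged from 3407066 to 6315574 counts in Sox1posGP, from 4939268 to 18351483 in Baseline, from 29046205 to 43095688 in NSC and from 16707006 to 34594885 in NR, so low genes were measured least precisely in the glial progenitors. Levels are given as CPM, the counts relative to library size, scaled by TMM, a method that corrects for composition. Tests are the quasi-likelihood F-test of edgeR over all tested genes, with p adjusted by Benjamini-Hochberg, and SE is the standard error of a log2 fold change. *Sox1* itself measured 4.83, 6.00 and 5.43 CPM in Baseline and 20.3, 20.9 and 21.7 in Sox1posGP, without overlap (log2 fold change 1.97, SE 0.43, adjusted p = 0.0022). It measured 48.6, 64.9 and 51.8 CPM in NSC and 4.62, 20.0 and 19.2 in NR, so replicate 1 of NR lay at the level of Baseline. The libraries labelled NR also held markers of pluripotent cells at a summed level of 1326 to 2505 CPM over 5 genes, against 43.2 to 129.6 in NSC and at most 9.01 in the glial progenitors. In every NR library this sum exceeded that of the neuroepithelial markers (325 to 644 CPM). The sum of 6 mesenchyme markers, listed below, also exceeded the neuroepithelial sum in every NR library. It did so in NSC replicates 1 and 3 (1927 and 1908 CPM against 1026 and 1088) but not in NSC replicate 2 (579 against 1176). NSC and NR are called neuroepithelial here after their labels only. The part of pluripotent cells in the results for NR was not tested.

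The glial labels were checked against marker lists. Astroglia markers summed to 2488 to 2793 CPM in Baseline and 1173 to 1227 in Sox1posGP, against at most 58.9 in NSC and NR, but this sum was almost all *Slc1a3* (2468 to 2774 CPM in Baseline). *S100b* was at 14.1 to 19.1 CPM and *Gfap* at 1.46 to 3.67 in the glial progenitors, both overlapping between Baseline and Sox1posGP and above NSC and NR. *Aqp4* and *Aldh1l1* were instead higher in every NSC and NR library than in Baseline, where they were at no more than 0.0597 and 0.698 CPM, so the list did not move as one. Oligodendrocyte lineage markers summed to 2404 to 2533 CPM in Baseline, 1627 to 1761 in Sox1posGP and at most 77.4 in NSC and NR, carried by *Olig1* and *Olig2*. *Mbp* was instead at no more than 0.626 CPM in the glial progenitors and at least 17.5 in NSC and NR. *Pdgfra* was at 7.52 to 9.18 CPM in Baseline and at 12.7, 3.00 and 12.4 in NSC, which overlapped, and at 9.58 to 14.3 in NR. Neuroepithelial markers summed to 131 to 138 CPM in Baseline, 243 to 260 in Sox1posGP, 1026 to 1176 in NSC and 325 to 644 in NR. This list did not move as one either. *Cdh2* was at 61.6 to 74.7 CPM in Baseline and 144 to 154 in Sox1posGP, and *Hes5* and the targeted gene *Sox1* were also higher. *Lin28a* and *Prom1* reached at most 0.558 and 2.09 CPM in any glial progenitor library. The sums of these lists differed between Sox1posGP and Baseline, and the part of such cells in the members' differences was not tested. Microglia markers reached at most 0.616 CPM in any library, and endothelial markers summed to 132.5 CPM in NR replicate 1, of which *Pecam1* alone was 121.8.

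The members called different between Sox1posGP and Baseline were the ligand *Igf2* and some of the binding proteins. *Igf2* rose 10.7-fold, *Igfbp3* and *Igfbp5* rose by smaller amounts, *Igfbp4* fell slightly, and the most abundant member, *Igfbp2*, was not called (log2 fold change 0.07). In all, 4 of the 10 members passed an adjusted p of 0.1, while 44.3% of all tested genes did, a share near that of the members. Of these, 3 were higher (21.6% of tested genes) and 1 was lower (22.7%). *Igf2* was the 1 member called with a fold over 4, as 5.79% of tested genes were. Its Baseline counts alone were too low for the filter, which it passed through Sox1posGP, NSC and NR. In 6 members the libraries of Sox1posGP and Baseline did not overlap, as in 52.7% of tested genes. The receptors *Igf1r* and *Igf2r* were among these without being called, though both passed when only these groups were fitted. The median log2 fold change was 0.07 over the 9 members other than *Igf1*, which was at its floor in both groups, and 0 over all tested genes.

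The neuroepithelial groups stood much further from Baseline. Both ligands were higher in NSC and in NR, *Igfbp5* was higher, and *Igf1r*, *Insr*, *Igfbp2*, *Igfbp3* and *Igfbp4* were lower in both. In NSC 8 of 10 members passed against Baseline, where 78.1% of tested genes did, with 3 higher (44.4% of tested genes) and 5 lower (33.7%). In NR 9 of 10 passed, where 79.8% of tested genes did, with 4 higher (45.6%) and 5 lower (34.1%). Libraries did not overlap Baseline for 8 members in NSC (77.3% of tested genes) and for 8 in NR (77.8%). The calls with a fold over 4 were *Igf1*, *Igf2*, *Igfbp5* and *Igfbp2* in NSC, 4 of 10 where 25.4% of tested genes were, and *Igf1* and *Igf2* in NR, 2 of 10 where 28.1% were. The shares called in either direction were near those of genes at large. The counts include *Igf1*, which passed the filter only through NSC and NR, and *Igf2*, whose Baseline counts alone were too low for it. The median log2 fold change of the members was -0.27 in NSC and -0.17 in NR, against 0.20 and 0.19 over all tested genes, and was the same with *Igf1* set at its bound. Since the NSC, NR and Sox1posGP comparisons use the same Baseline libraries, their values are set side by side and are not independent of one another.

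**Figure D1:**
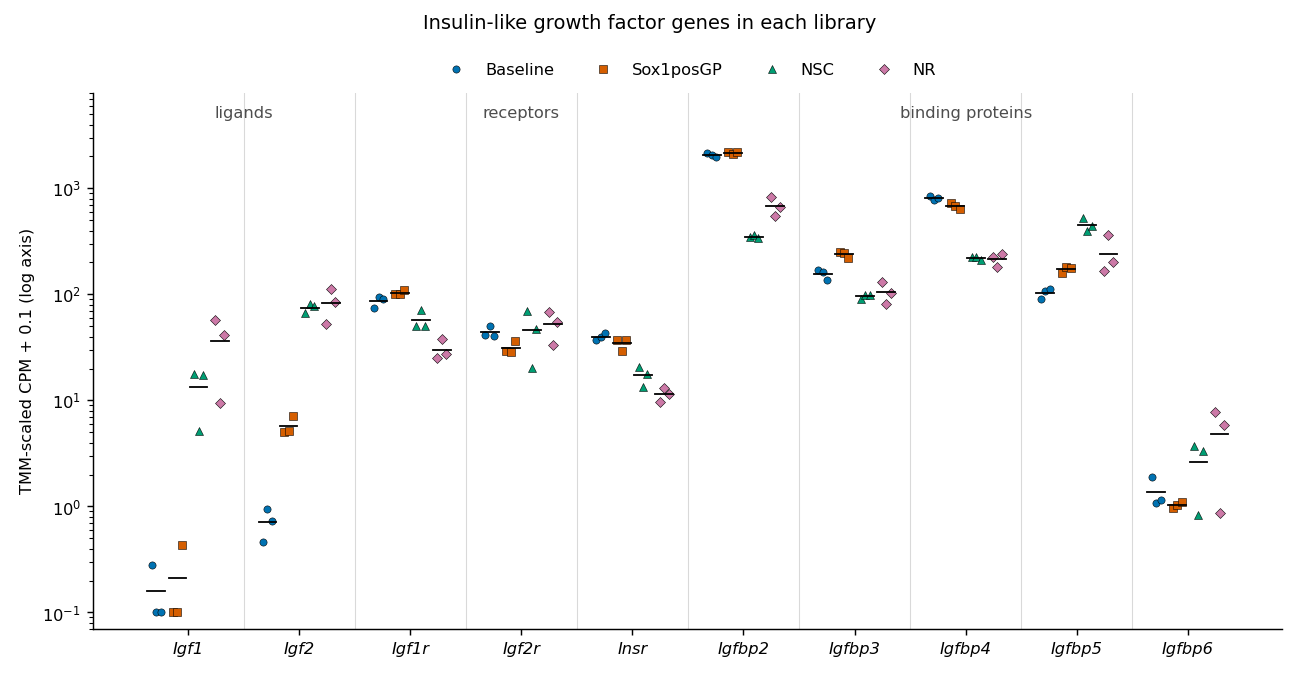
TMM-scaled CPM plus 0.1 on a log axis for the 10 members, with 3 points per group (1 per library) and a black bar at the group mean. *Igf2* steps up from Baseline through Sox1posGP to NSC and NR, and *Igfbp2* is the most abundant of the 10 members by count in the glial progenitors.

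*Igf1*, the ligand whose synthesis in many tissues responds to growth hormone, lies at chr10:87858265-87937042 (mm10, plus strand, 8 exon blocks). It was at or near 0 in both glial progenitor groups, with 3, 0 and 0 counts in Baseline and 0, 0 and 2 in Sox1posGP. NSC measured 17.6, 5.08 and 17.2 CPM and NR 57.7, 9.42 and 41.1. Every neuroepithelial library therefore lay above every glial progenitor library, while the NSC and NR ranges overlapped. Taking 3 counts per library as the floor, *Igf1* was at least 32.6-fold higher in NSC and at least 88.4-fold higher in NR than in Baseline. No p is given for these differences, because *Igf1* passed the filter on low counts only through NSC and NR. Against Sox1posGP the bounds were 21.7-fold and 58.8-fold. No fold is given between the glial progenitor groups, which were both at the floor.

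*Igf1* in NR exceeded NSC by a log2 fold change of 1.43 (SE 0.53, adjusted p = 0.0377), and this call was not stable. It did not pass without NR replicate 1 (0.92, adjusted p = 0.182) or in DESeq2's Wald test (1.46, adjusted p = 0.184), and its log2 fold change ranged from 0.92 to 1.88 over all alternatives. Nor did it pass when only NSC and NR were fitted (1.38, adjusted p = 0.138). Within both groups replicate 2 was the lowest library, and the same libraries were lowest in the summed level of 6 mesenchyme markers. That sum over *Col1a1*, *Col1a2*, *Pdgfrb*, *Twist1*, *Dcn* and *Lum* was 1927, 579 and 1908 CPM in NSC and 4805, 660 and 3347 in NR, with all 6 genes detected in every one of these libraries. The collagens carried the sum, and *Twist1* ran the other way, being highest in replicate 2 at 31.1 CPM in NSC and 38.2 in NR. The glial progenitor libraries summed to between 29.4 and 33.9 CPM, of which *Twist1* was the largest part. The part of mesenchyme-like cells in the *Igf1* level was not tested. In bulk RNA, fewer cells of a type and less RNA per cell cannot be told apart.

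**Figure D2:**
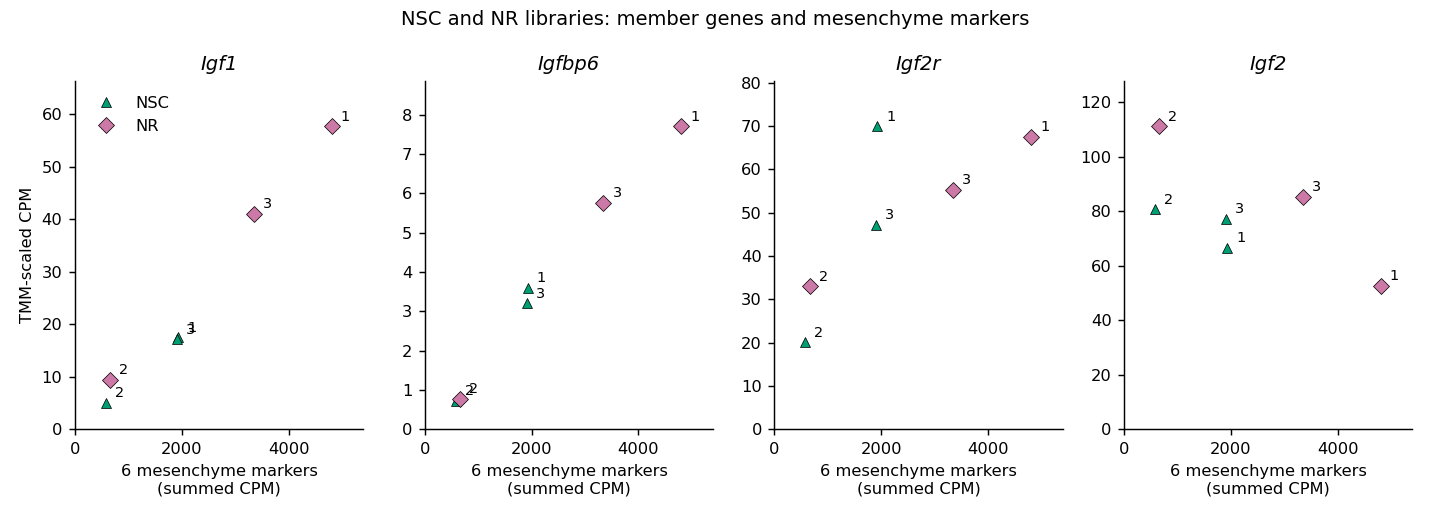
TMM-scaled CPM of *Igf1*, *Igfbp6*, *Igf2r* and *Igf2* in the 3 NSC and 3 NR libraries (vertical axes) against the summed CPM of 6 mesenchyme markers (horizontal axes), with replicate numbers beside the points. Replicate 2 of both groups is lowest in the summed markers, *Igf1*, *Igfbp6* and *Igf2r* and highest in *Igf2*.

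*Igf2*, the fetal growth factor of the axis, lies at chr7:142650766-142666816 (mm10, minus strand, 8 exon blocks). Baseline held 6, 6 and 3 counts and Sox1posGP 17, 32 and 42, although the Sox1posGP libraries were on the whole shallower. In CPM these were 0.358, 0.837 and 0.626 in Baseline and 4.92, 5.02 and 7.01 in Sox1posGP. All 3 Sox1posGP libraries lay above all 3 Baseline libraries, and the log2 fold change was 3.42 (SE 0.48, 95% confidence interval 2.38 to 4.46). This is 10.7-fold on the linear scale. No p is given for this difference, because the Baseline counts alone were too low for the filter, which *Igf2* passed through Sox1posGP, NSC and NR. Across the alternatives that tested *Igf2* the log2 fold change stayed between 2.92 and 3.74. All of them kept the call, the fit with no filter on low counts included. A filter of 10 counts in every library left *Igf2* out. The 112 tested genes within 5 Mb on either side had a median log2 fold change of 0.07.

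The *Igf2* level of Sox1posGP remained far below that of the neuroepithelial groups. NSC measured 66.7, 80.8 and 77.3 CPM and NR 52.7, 111 and 85.4. The libraries of these groups overlapped each other and all lay above Sox1posGP, whose log2 fold change was -3.71 against NSC (SE 0.27, adjusted p = 4.28e-08) and -3.86 against NR (SE 0.27, adjusted p = 2.75e-08). NR and NSC were not called different in *Igf2* (log2 fold change 0.15, 95% confidence interval -0.29 to 0.59, adjusted p = 0.56), with the exception of the fit without NR replicate 1, where NR was higher (0.39, adjusted p = 0.044), and its range over the alternatives was -0.11 to 0.39. Unlike *Igf1*, *Igf2* was highest in replicate 2 of both neuroepithelial groups, where the mesenchyme sum was lowest. The order of the groups was thus Baseline, Sox1posGP, then NSC and NR together.

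Reads at *Igf2* can be shared with other annotated transcripts. The annotated protein-coding gene *Gm49394* shares 3596 exon bases with it on the same strand and was not analysed here. The antisense RNA *Igf2os* shares 98 exon bases, and the strand setting of the counting is not given in the sources used here. *Igf2os* itself reached at most 3 counts in any glial progenitor library and did not pass the filter.

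Per length, that is in RPKM, the CPM divided by the exon length in kilobases, *Igf2* was the higher of the ligands in NSC and NR. The ratio of *Igf2* to *Igf1* in RPKM was 6.57, 27.6 and 7.78 in NSC and 1.58, 20.4 and 3.59 in NR, so it exceeded 1 in all 6 libraries and was highest in replicate 2 of each group. By CPM, which takes no account of length, *Igf1* was instead the higher in NR replicate 1 (57.7 against 52.7). In group means *Igf2* measured 0.106 RPKM in Baseline, 0.987 in Sox1posGP, 13.1 in NSC and 14.5 in NR.

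The RefSeq promoter set used here held 13 windows for 9 of the 10 members on GRCm38.p6, with none for *Insr*. Of the 13 windows, 4 belong to *Igf2*. Gene-level counts cannot tell which *Igf2* start was used. The 250 bases before the *Igf2* start nearest to the gene's end are shown because *Igf2* was the member called with the largest change in Sox1posGP. Those of *Igfbp2* (its outermost start) and *Igfbp5* are shown because these neighbours changed in opposite directions in NSC. All are written 5′ to 3′ on the gene's strand. Capitals mark GGGCGG (the GC box, a motif bound by SP factors) on either strand, and matches to the SOX-type letters ACAAAG and ACAATG would be in capitals too.
Igf2, chr7:142657497-142657746, minus strand: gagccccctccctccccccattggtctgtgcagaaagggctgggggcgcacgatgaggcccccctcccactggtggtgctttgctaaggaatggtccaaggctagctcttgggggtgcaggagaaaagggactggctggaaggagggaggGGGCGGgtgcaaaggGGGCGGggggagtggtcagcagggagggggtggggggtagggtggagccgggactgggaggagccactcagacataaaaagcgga
Igfbp2, chr1:72824230-72824479, plus strand: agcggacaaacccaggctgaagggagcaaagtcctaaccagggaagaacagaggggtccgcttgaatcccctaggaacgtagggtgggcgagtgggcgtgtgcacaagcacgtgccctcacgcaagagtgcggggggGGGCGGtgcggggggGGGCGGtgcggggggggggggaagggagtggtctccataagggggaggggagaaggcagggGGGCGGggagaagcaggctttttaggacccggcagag
Igfbp5, chr1:72874866-72875115, minus strand: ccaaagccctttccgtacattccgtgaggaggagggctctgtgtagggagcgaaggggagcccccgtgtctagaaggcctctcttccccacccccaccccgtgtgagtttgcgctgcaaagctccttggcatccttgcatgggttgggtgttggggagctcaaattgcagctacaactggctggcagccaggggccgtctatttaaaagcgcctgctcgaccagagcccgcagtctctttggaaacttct
The *Igf2* stretch held 2 GC boxes, the *Igfbp2* stretch 3 and the *Igfbp5* stretch none, and ACAAAG and ACAATG were in none of them. Among all 32851 promoter windows, which run 50 bases further, 35.7% held GGGCGG, 18.7% held ACAAAG and 12.6% held ACAATG on either strand. In the other members' windows, ACAAAG was found at *Igf1* and *Igf1r*, and ACAATG at *Igf1* and a second *Igf2* window. ACAAAG and ACAATG cannot match at the same position, and a match describes letters only.

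The receptors were lower in the neuroepithelial groups for *Igf1r* and *Insr*, and none of the 3 was called between Sox1posGP and Baseline by edgeR (0 at an unadjusted p under 0.05 and 0 by DESeq2). *Igf1r*, at chr7:67952827-68233668 on the plus strand, measured 73.9, 94.0 and 91.0 CPM in Baseline and 101, 100 and 110 in Sox1posGP. The Sox1posGP libraries all lay above, yet the log2 fold change of 0.27 did not pass (SE 0.17, 95% confidence interval -0.10 to 0.64, adjusted p = 0.247). It passed when only these groups were fitted (adjusted p = 0.0018) and when libraries were thinned to equal depth (adjusted p = 0.0384), and its log2 fold change ranged from 0.16 to 0.39 over the alternatives.

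*Igf1r* was lower in the neuroepithelial groups, with 50.1, 71.2 and 50.3 CPM in NSC and 24.9, 38.1 and 27.3 in NR. The ranges of NSC, NR and Baseline did not overlap. The log2 fold change was -0.59 in NSC against Baseline (SE 0.17, adjusted p = 0.00581), -1.51 in NR against Baseline (SE 0.17, adjusted p = 2.28e-06) and -0.92 in NR against NSC (SE 0.17, adjusted p = 5.03e-04). The groups therefore ranked Sox1posGP and Baseline, NSC, NR, with the first pair not called different.

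*Insr*, at chr8:3122061-3279617 on the minus strand, followed the same order among the called groups. It measured 37.2, 39.5 and 42.8 CPM in Baseline, 37.3, 29.4 and 36.7 in Sox1posGP, 20.8, 13.4 and 17.5 in NSC and 9.67, 12.9 and 11.4 in NR. The glial progenitor groups overlapped, and both lay above NSC, which lay above NR. The log2 fold change of -0.21 in Sox1posGP did not pass (95% confidence interval -0.57 to 0.16, adjusted p = 0.373). Against Baseline *Insr* fell by 1.20 in NSC (SE 0.16, adjusted p = 1.55e-05) and by 1.80 in NR (SE 0.17, adjusted p = 3.43e-07) on the log2 scale. Its log2 fold change of -0.60 from NSC to NR (adjusted p = 0.00785) was lost when libraries were thinned to equal depth (-0.37, adjusted p = 0.123).

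*Igf2r*, at chr17:12682406-12769664 on the minus strand, varied widely between replicates of the neuroepithelial groups. It measured 41.2, 50.4 and 40.7 CPM in Baseline and 29.0, 28.4 and 36.0 in Sox1posGP, which did not overlap. The difference of -0.50 on the log2 scale did not pass (SE 0.37, 95% confidence interval -1.29 to 0.30, adjusted p = 0.328), though it passed when only these groups were fitted (-0.47, adjusted p = 9.24e-05), a fit whose spread leaves out the neuroepithelial libraries, and with no filter on low counts (-0.49, adjusted p = 0.00623). Its range over the alternatives was -0.62 to -0.39. NSC measured 69.9, 20.1 and 47.3 CPM and NR 67.5, 33.0 and 55.3, and both overlapped Baseline. Replicate 2 was again lowest in both groups, as for the mesenchyme sum. Without those libraries *Igf2r* was higher than in Baseline in NSC (0.40, adjusted p = 0.0226) and in NR (0.45, adjusted p = 0.0124), whereas with them neither difference passed (0.06, adjusted p = 0.887, and 0.23, adjusted p = 0.551).

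The receptors were also set against each other within libraries. The ratio of *Igf2r* to *Igf1r* in RPKM was 1.01, 0.966 and 0.807 in Baseline and 0.518, 0.513 and 0.592 in Sox1posGP, with no overlap. It was 2.52, 0.509 and 1.70 in NSC and 4.90, 1.56 and 3.65 in NR. These ratios were chosen after the values were seen and are given with no test. *Airn*, the antisense RNA that takes part in imprinting of *Igf2r*, shares no exon bases with it and was higher in Sox1posGP, with 15.6, 13.2 and 20.3 CPM against 7.46, 6.98 and 6.68 in Baseline (log2 fold change 1.21, SE 0.21, adjusted p = 4.06e-04). Without a stated strand setting, its reads cannot be told apart from unspliced *Igf2r* RNA.

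The binding proteins included the most abundant transcripts of the axis. *Igfbp2*, which binds IGF2 with preference and is common in fetal brain, lies at chr1:72824503-72852474 on the plus strand. It measured 2179, 2058 and 1968 CPM in Baseline and 2208, 2130 and 2196 in Sox1posGP, overlapping ranges with a log2 fold change of 0.07 (95% confidence interval -0.18 to 0.33, adjusted p = 0.678). *Igfbp2* was thus the most abundant member by count in both groups.

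NSC held far less *Igfbp2*, with 348, 364 and 338 CPM, and NR was intermediate with 832, 548 and 673. None of these ranges overlapped each other or the glial progenitors. *Igfbp2* fell by 2.56 on the log2 scale from Baseline to NSC (SE 0.13, adjusted p = 6.33e-10) and by 1.60 from Baseline to NR (SE 0.12, adjusted p = 4.22e-08), and NR exceeded NSC by 0.97 (SE 0.12, adjusted p = 3.27e-05).

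*Igfbp5*, a binding protein that also associates with extracellular matrix, lies tail to tail with *Igfbp2* at chr1:72857932-72874884 on the minus strand, 5457 bases away. It measured 90.9, 108 and 112 CPM in Baseline and 160, 182 and 176 in Sox1posGP. The ranges did not overlap, and the log2 fold change was 0.74 (SE 0.23, 95% confidence interval 0.25 to 1.23, adjusted p = 0.0189). NSC measured 521, 393 and 442 CPM and NR 165, 361 and 200. Compared with Baseline, the log2 fold change was 2.13 in NSC (SE 0.23, adjusted p = 1.43e-06) and 1.23 in NR (SE 0.22, adjusted p = 1.90e-04). NR fell below NSC by a log2 fold change of -0.90 (SE 0.22, adjusted p = 0.00363), and the single highest NR library was replicate 2. *Igfbp5* was lower in Sox1posGP than in NR (-0.49, adjusted p = 0.0605), and this call was lost without that library (-0.08, adjusted p = 0.588).

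The neighbouring genes changed in opposite directions in NSC and NR against Baseline, but not in Sox1posGP, where *Igfbp2* was not called. The ratio of *Igfbp2* to *Igfbp5* in RPKM was 77.9, 61.7 and 57.1 in Baseline and 45.0, 38.0 and 40.7 in Sox1posGP. It was 2.17, 3.01 and 2.49 in NSC and 16.3, 4.93 and 10.9 in NR, and the 4 groups did not overlap. The 69 tested genes within 5 Mb of *Igfbp2* had a median log2 fold change of 0.05 in Sox1posGP and 0.21 in NSC against Baseline, where *Igfbp2* and *Igfbp5* stood at -2.56 and 2.13.

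*Igfbp3*, a major carrier of IGFs in blood, lies at chr11:7206086-7213923 on the minus strand and was highest in Sox1posGP. It measured 171, 163 and 135 CPM in Baseline and 251, 247 and 221 in Sox1posGP, without overlap. The log2 fold change was 0.61 (SE 0.14, 95% confidence interval 0.30 to 0.92, adjusted p = 0.00411). NSC measured 90.0, 99.2 and 97.6 CPM and NR 132, 81.1 and 103, both below Baseline. The log2 fold change against Baseline was -0.72 in NSC (adjusted p = 4.62e-04) and -0.58 in NR (adjusted p = 0.00212), opposite in sign to that of Sox1posGP. NR and NSC overlapped and were not called different (0.14, adjusted p = 0.45), although NR was higher without replicate 2 of both (0.30, adjusted p = 0.0305).

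*Igfbp4*, which mostly restrains IGF action until it is cleaved by PAPP-A, lies at chr11:99041244-99054392 on the plus strand. It measured 845, 773 and 805 CPM in Baseline and 735, 678 and 641 in Sox1posGP. The groups did not overlap, and the log2 fold change of -0.24 passed narrowly (SE 0.10, 95% confidence interval -0.45 to -0.03, adjusted p = 0.0683). The call was lost with DESeq2's Wald test (adjusted p = 0.111), its size factors (0.116), upper-quartile scaling (0.188), no filter on low counts (0.117), a filter of 10 counts in every library (0.154) and thinning (0.115). It was also lost without any single one of 4 libraries, namely Baseline replicates 1 and 3 (adjusted p = 0.171 and 0.154) and Sox1posGP replicates 2 and 3 (adjusted p = 0.155 and 0.220). In the neuroepithelial groups the difference was large, with 224, 224 and 212 CPM in NSC and 223, 182 and 239 in NR. *Igfbp4* fell by 1.88 in NSC (SE 0.10, adjusted p = 1.35e-09) and by 1.91 in NR (SE 0.10, adjusted p = 1.08e-09) from Baseline on the log2 scale, and NR and NSC overlapped.

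*Igfbp6*, which has a marked preference for IGF2, lies at chr15:102144362-102149511 on the plus strand and was the scarcest of the 5 binding-protein members. It measured 1.79, 0.977 and 1.04 CPM in Baseline, 0.869, 0.942 and 1.00 in Sox1posGP, 3.60, 0.725 and 3.20 in NSC and 7.70, 0.774 and 5.76 in NR. Replicate 2 of NSC and NR lay below all Baseline libraries while the other NSC and NR libraries lay above them, as for the mesenchyme sum, whose part was not tested. NR was called higher than Baseline (log2 fold change 1.77, SE 0.74, adjusted p = 0.0425), a call lost without NR replicate 1 (adjusted p = 0.158), NR replicate 3 (0.104), Baseline replicate 2 (0.115) or Baseline replicate 3 (0.104). The difference between NR and NSC did not pass (0.88, adjusted p = 0.26) but passed with the replicate number as a block (0.79, adjusted p = 0.0582). In Sox1posGP the level was within 3 to 6 counts per library, and no difference from Baseline was detectable at this depth (-0.53, 95% confidence interval -2.67 to 1.62).

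**Figure D3:**
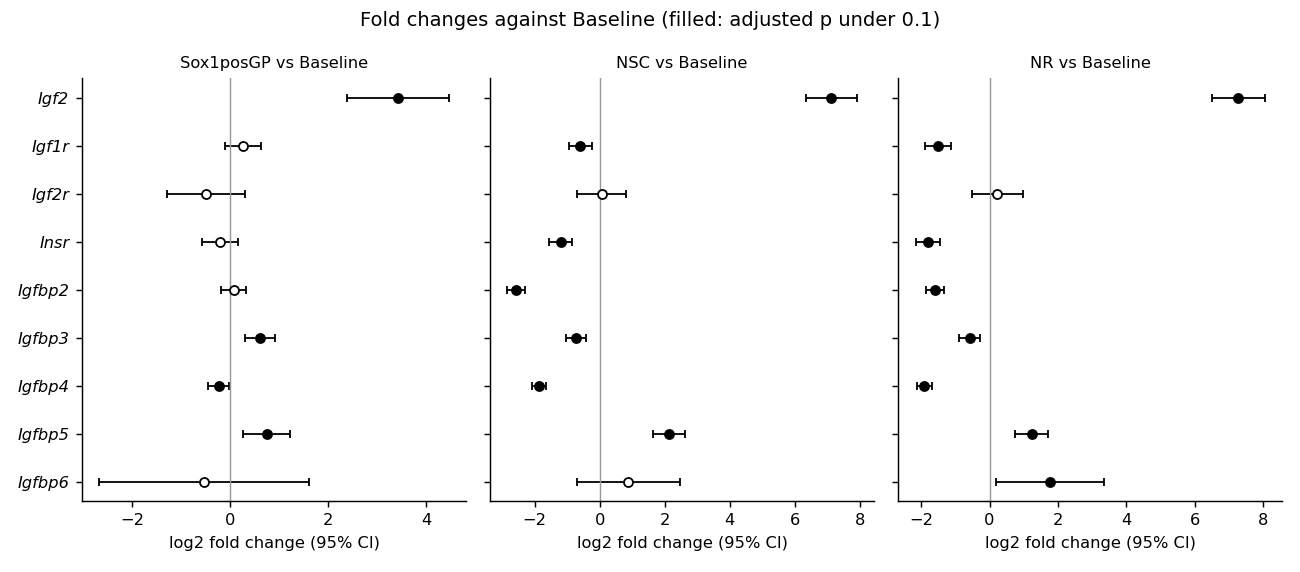
Log2 fold changes against Baseline with 95% confidence intervals from edgeR for 9 members in Sox1posGP, NSC and NR (3 libraries per group), with filled points at an adjusted p under 0.1 and *Igf1* left out because Baseline was at its floor. *Igf2* rises in all 3 panels, *Igfbp3* rises in Sox1posGP and falls in NSC and NR, and *Igf2r* is not called in any.

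Summed over *Igfbp2* to *Igfbp6* per length, the makeup of the binding-protein RNA differed between the groups. *Igfbp2* made up 81.7% ± 0.33 (SD, n = 3) of the summed RPKM in Baseline and 81.9% ± 0.86 in Sox1posGP, against 54.6% ± 2.24 in NSC and 74.1% ± 4.07 in NR. *Igfbp5* made up 1.27% ± 0.19 in Baseline, 2.00% ± 0.17 in Sox1posGP, 21.6% ± 2.66 in NSC and 8.58% ± 4.95 in NR. *Igfbp4* contributed 13.3% in Baseline, 10.8% in Sox1posGP, 14.3% in NSC and 9.84% in NR. *Igfbp3* contributed between 3.64% and 8.80% in group means and *Igfbp6* under 1% in each. These shares are within libraries and carry no test.

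**Figure D4:**
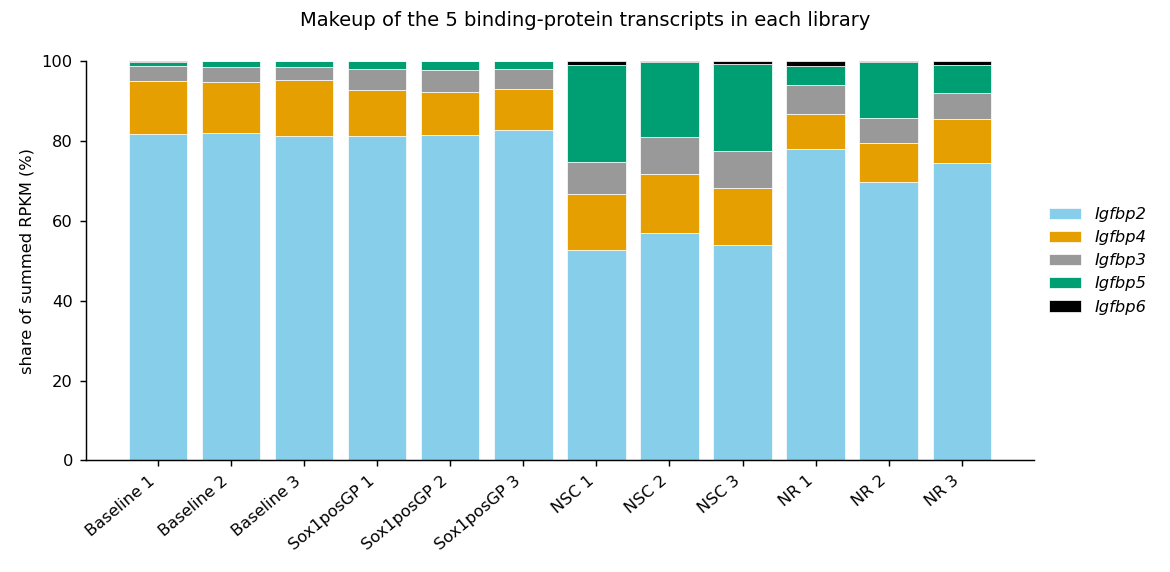
Share of each binding-protein gene in the summed RPKM of *Igfbp2* to *Igfbp6* (percent, stacked bars from 0) for each of the 12 libraries. *Igfbp2* fills over 81% in every glial progenitor library and 52.6% to 57.0% in NSC, where *Igfbp5* takes the largest share of any group.

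In level per length *Igfbp2* ranked first among the 10 members in every group, with 1120 RPKM ± 57.4 (SD, n = 3) in Baseline, 1179 ± 22.7 in Sox1posGP, 189.5 ± 7.09 in NSC and 370.3 ± 77.0 in NR. *Igfbp4* was second in Baseline and Sox1posGP with 182.9 and 155.0 RPKM, whereas *Igfbp5* was second in NSC with 75.3. In NR *Igfbp4* and *Igfbp5* followed at 48.7 and 40.3 RPKM, and their ranges overlapped. Among the receptors *Igf1r* led in the glial progenitors with 5.14 RPKM in Baseline and 6.16 in Sox1posGP, followed by *Igf2r* with 4.74 and 3.35. In NSC and NR *Igf2r* led with 4.92 and 5.58 RPKM over *Igf1r* with 3.41 and 1.79, and *Insr* had the lowest mean of the 10 members. With the longest transcript as the length in place of all exons, *Igf2r* and *Insr* changed places in Sox1posGP, as did *Igfbp6* and *Igf1*, and *Igfbp5* and *Igfbp3*, in NR.

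NR was set directly against NSC as the other population labelled neuroepithelial. Of the 10 members 5 passed, against 56.6% of tested genes, with *Igf1* and *Igfbp2* higher (30.0% of tested genes) and *Igf1r*, *Insr* and *Igfbp5* lower in NR (26.6%). No member passed with a fold over 4 in edgeR (0 of 10, against 7.46% of tested genes), also 0 at an unadjusted p under 0.05 and 0 by DESeq2. Libraries of NR and NSC did not overlap for 4 members, as for 56.7% of tested genes.

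Sox1posGP was also set against each neuroepithelial group. Against NSC 8 of 10 members passed, as 73.2% of tested genes did, with 5 higher (31.4%) and 3 lower (41.8%) in Sox1posGP. Against NR all 10 passed, as 76.4% of tested genes did, with 5 higher (32.0%) and 5 lower (44.4%). The 5 higher members were *Igf1r*, *Insr*, *Igfbp2*, *Igfbp3* and *Igfbp4* in both comparisons, which share the Sox1posGP libraries. The lower members include *Igf1*, which passed the filter only through NSC and NR. A fold over 4 was reached by 3 members against NSC (22.6% of tested genes) and 3 against NR (26.2%), and libraries did not overlap for 8 members against NSC (74.3%) and 7 against NR (75.9%). Of those against NR, the calls of *Igf2r* (-0.73, adjusted p = 0.0846) and *Igfbp5* were lost without single libraries. For *Igf2r* these were NR replicate 1 (adjusted p = 0.289), NR replicate 3 (0.188) and each Sox1posGP replicate (0.102 to 0.203), and for *Igfbp5* NR replicate 2 and Sox1posGP replicates 1 and 3 (0.206 and 0.112).

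A wider list of 43 genes of the pathway in 6 groups was read beside the members. In Sox1posGP against Baseline 9 of the 38 that could be tested were higher, 5 were lower and 24 did not pass, where 44.3% of all tested genes were called. In NSC against Baseline 21 were higher (44.4% of all tested genes) and 13 lower (33.7%), and in NR 21 were higher (45.6%) and 11 lower (34.1%). Genes of these lists that were near 0 in the glial progenitors passed the filter only through NSC and NR.

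The IGF2 mRNA-binding proteins, RNA-binding proteins that are abundant in fetal tissue, were all higher in NSC and NR than in Baseline. *Igf2bp1* measured 3.34, 3.91 and 3.13 CPM in Baseline, 2.32, 3.45 and 2.67 in Sox1posGP, 477, 650 and 436 in NSC and 350, 439 and 329 in NR. The glial progenitor groups overlapped, and the log2 fold change in NSC was 7.23 (SE 0.21, adjusted p = 6.19e-12). *Igf2bp2* was the only one of the 3 called in Sox1posGP, with 35.3, 37.8 and 37.9 CPM against 21.1, 18.7 and 21.5 in Baseline (log2 fold change 0.86, SE 0.14, adjusted p = 2.55e-04), and it reached 468 to 554 CPM in NSC. *Igf2bp3* measured 90.0 to 94.2 CPM in Baseline, 94.8 to 108 in Sox1posGP and 320 to 349 in NSC. All 3 were lower in NR than in NSC, by log2 fold changes of -0.48, -0.65 and -1.03.

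Among imprinted partners, *Plagl1* (a zinc finger transcription factor, also known as *Zac1*) measured 6.92, 5.16 and 3.76 CPM in Baseline and 26.9, 22.9 and 24.7 in Sox1posGP. The groups did not overlap, and the log2 fold change was 2.11 (SE 0.33, adjusted p = 2.08e-04). It measured 278, 396 and 277 CPM in NSC and 75.8, 168 and 99.9 in NR, so its order was Baseline, Sox1posGP, NR, NSC with no overlap. *H19*, the noncoding RNA that shares its imprinting control with *Igf2* 72622 bases away, behaved otherwise. It held 8, 3 and 2 counts in Baseline and 0, 2 and 3 in Sox1posGP, overlapping in CPM (adjusted p = 0.744), while NSC measured 56.0, 29.6 and 48.8 CPM and NR 90.8, 55.5 and 92.1. *H19* was thus at or near the floor in Sox1posGP, where *Igf2* was 10.7-fold above Baseline. *H19* was lowest in replicate 2 of NSC and NR, as the mesenchyme sum was. *Airn*, described above for Sox1posGP, was lower in NSC than in Baseline (-0.92, SE 0.20, adjusted p = 0.0011).

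**Figure D5:**
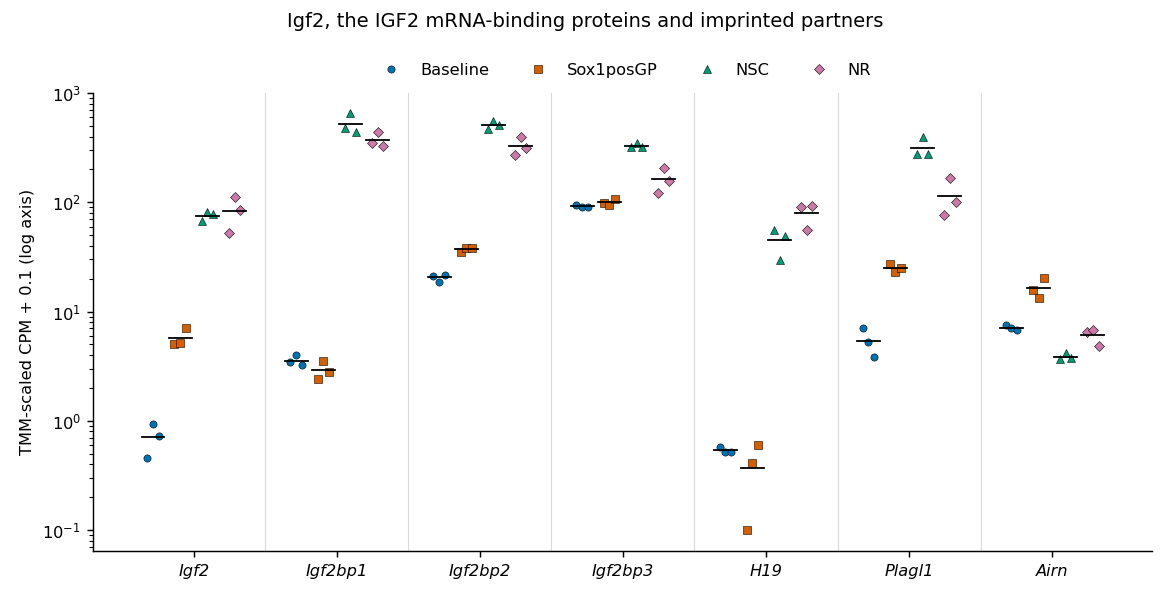
TMM-scaled CPM plus 0.1 on a log axis for *Igf2*, the 3 IGF2 mRNA-binding proteins and the imprinted partners *H19*, *Plagl1* and *Airn*, with 3 points per group and a black bar at the mean. *Igf2*, *Igf2bp2*, *Plagl1* and *Airn* are higher in Sox1posGP than in Baseline, whereas *H19* and *Igf2bp1* overlap.

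The docking and adaptor proteins relay the signal from the activated receptors. Of 7, 3 were higher in Sox1posGP than in Baseline, where 21.6% of all tested genes were, and 4 did not pass. *Irs1*, the classical receptor substrate, measured 1.55, 2.37 and 1.67 CPM in Baseline and 9.26, 11.6 and 8.51 in Sox1posGP. This was a log2 fold change of 2.43 without overlap (SE 0.25, adjusted p = 4.98e-06), and NSC measured 14.9, 11.5 and 12.0. Sox1posGP and NSC were not called different in *Irs1* (-0.38, SE 0.20, adjusted p = 0.107). The other 2, *Grb14* and *Shc1*, are named after their values were seen and rose by 1.47 and 0.74 on the log2 scale (adjusted p = 1.31e-04 and 1.98e-04).

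*Grb10*, an imprinted adaptor that restrains signalling from *Igf1r* and *Insr*, held at most 6 counts in any glial progenitor library. NSC measured 57.5, 24.8 and 50.9 CPM and NR 158, 49.8 and 130, at least 109-fold and at least 276-fold above Baseline with 3 counts per library as the floor. It too was lowest in replicate 2 of each. *Irs4* was at least 13.0-fold higher in NSC than in Baseline by the same rule, having passed the filter only through the libraries labelled NSC and NR.

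Of the 6 proteases of binding proteins and their inhibitors, 2 rose and 1 fell in Sox1posGP, a share near the 44.3% of all tested genes. *Stc2*, a stanniocalcin that inhibits PAPP-A, measured 78.1, 78.3 and 78.1 CPM in Baseline and 23.4, 18.5 and 18.7 in Sox1posGP. It fell by 1.96 on the log2 scale (SE 0.13, adjusted p = 1.14e-07), with values from 5.64 to 7.46 CPM in NSC. *Stc1*, its paralog, and the metalloprotease gene *Adam12*, both named after their values were seen, rose by 1.54 and 1.55 (adjusted p = 0.00263 and 5.29e-04). *Pappa*, which encodes PAPP-A, had 4 counts at most in any Baseline library and measured 15.7, 19.2 and 16.5 CPM in NSC, while *Pappa2* was at least 2.73-fold higher in NSC.

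Of the 16 genes of the PI3K-AKT-mTOR-FOXO relay, 1 rose (21.6% of all tested genes) and 4 fell (22.7%) in Sox1posGP and 11 did not pass. Their median log2 fold change was -0.05. *Pik3r1*, a regulatory subunit of PI3K, rose by 0.53 (SE 0.12, adjusted p = 0.00368). *Rheb*, *Pdpk1*, *Foxo3* and *Pik3ca* fell by 0.41, 0.42, 0.39 and 0.37 on the log2 scale (adjusted p = 0.00114, 0.0287, 0.0891 and 0.0571). All 5 are named after their values were seen. Of the other ligands, receptors and binding proteins, *Ins1* had no counts in any library, *Ins2*, *Insrr* and *Igfbp1* did not pass the filter, and the other 3 did not pass the test in Sox1posGP, where *Igfbp7* came nearest (log2 fold change 1.88, SE 0.87, adjusted p = 0.109). *Igfbp7* was higher in NSC than in Baseline, by 4.25 on the log2 scale. No p is given for this, because its Baseline counts alone were too low for the filter. *Igfbpl1* had at most 5 counts in any Baseline library and measured 12.8, 4.45 and 12.0 CPM in NSC. It passed the filter only through NSC and NR. Replicate 2 was the lowest NSC library for both genes.

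The genes whose pattern over the 12 libraries was most like that of a member were taken by Pearson's r of log2 CPM. The libraries form 4 groups, so r mostly follows group differences and is a description. For *Igf1*, the ligand of widest range, these were *Cavin3* (r = 0.998), *Ripk3* (0.994) and *Htatip2* (0.991). For *Insr*, the receptor of widest range, they were *Mia3*, *Phf20l1* and *Pou6f1* (r from 0.989 to 0.991). For *Igfbp2* they were *Dtymk*, *Tomm5* and *Xrcc6* (r from 0.995 to 0.997).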

How the data were processed

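Gene counts for 12 libraries (SMART-Seq v4 cDNA) were used as the authors deposited them, as whole numbers per Ensembl gene. The submitters' processing notes name STAR 2.6, RSEM 1.1.14 and mm10, without roles. The annotation release and strand setting are not given in the sources used here, so counts may be rounded estimates. Symbols and coordinates came from GENCODE on GRCm38 (mm10), which named 45143 of 45706 genes, and promoters from RefSeq.

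In R 4.3.3, edgeR 4.0.16 was run with TMM scaling, its filter on low counts and a quasi-likelihood fit of all 4 groups in 1 model (6 comparisons, adjusted p under 0.1). The code was tested on simulated data. Alternatives were DESeq2 1.42.0, other scalings, filters and thresholds, fits of 2 groups, thinning to the smallest library, a replicate block and leaving out each library. Replicates differed by more than sampling noise (chi-square per degree of freedom 1.54 to 49.0). They were collected on different days, and the library totals limit precision by counting error.

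Same-numbered NR and NSC libraries deviated together (r = 0.229, 0.490 and 0.296), but NR 3 with NSC 1 (0.301) and NR 1 with NSC 3 (0.186) did so too and only replicate 2 stood apart, so the labels' numbers pair them at most by this hint. All 10 members, *Sox1*, the IGF2 mRNA-binding proteins and the imprinted partners are named, and from the other lists up to 3 genes per list called with a fold over 4. Exceptions are stated. The members and lists were chosen with earlier results of these data known.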

Additional observations from a re-analysis of the deposited data

How the results depend on the processing

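Over 60 member and comparison pairs and leaving out the stricter thresholds, 859 of 932 values from other settings kept their direction and side of the threshold, 29 lost and 26 gained a call, and 18 moved without one. The stricter thresholds lost 31 more calls (a fold over 4) and 3 more (adjusted p under 0.05). No call changed direction. Requiring a fold over 4 as well left 1 member in Sox1posGP against Baseline, 4 in NSC and 2 in NR against Baseline, 0 in NR against NSC, and 3 in Sox1posGP against NSC and 3 against NR. The genes called then numbered 985, 4315, 4773, 1269, 3848 and 4455. With at least 10 counts in every library, only 7 members were tested, and *Igf1*, *Igf2* and *Igfbp6* were left out. Of those tested, 2 were called in Sox1posGP against Baseline. Called genes then numbered 8647 in NSC against Baseline, 8619 in NR against Baseline and 8310 in Sox1posGP against NR, from the fewer genes tested. Leaving out 1 library gave 3 to 4 members in Sox1posGP against Baseline, 8 in NSC and 8 to 9 in NR against Baseline, 5 to 7 in NR against NSC, and 8 to 10 and 8 to 9 in Sox1posGP against NSC and NR. Without replicate 2 of NSC and NR, chosen after seeing the data, 10 members were called in each against Baseline, 7 in NR against NSC, and 10 and 9 in Sox1posGP against NSC and NR. *Igfbp6* was then higher in NSC than in Baseline (1.25, adjusted p = 5.07e-04 in edgeR).

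With the replicate number as a block, members called were 4, 9 and 9 in Sox1posGP, NSC and NR against Baseline, 6 in NR against NSC, and 9 and 10 in Sox1posGP against NSC and NR. The added calls were of *Igfbp6*, in NSC against Baseline (0.90, adjusted p = 0.0823 in edgeR), in NR against NSC, and in Sox1posGP against NSC (-1.20, adjusted p = 0.0624), and the block changed no other member's call. Outside NR and NSC, same-numbered libraries shared only a number (r from -0.0472 to 0.0619). Depth limits *Igf1*, *Igf2* and *Igfbp6* most in the glial progenitors, where a few counts per library set the values.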
